A study of Mus musculus with 8 samples.

Results

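Amino acids and small peptides cross cell membranes through solute carriers, and the genes of 8 of these carrier families (Slc1, Slc3, Slc6, Slc7, Slc15, Slc36, Slc38 and Slc43) were compared between cell populations of mouse small intestinal epithelium. Membership was set by gene symbol and used no measured value, but these families and the lists of roles below were chosen with earlier results of these data known. Of 72 symbols that matched, 71 had a row among the 37620 genes of the deposited tables, and Slc6a16 was not analysed here. Of the 71, 4 are names of opposite-strand transcripts (Slc36a1os, Slc36a3os, Slc6a19os and Slc7a6os), which match by spelling and are not carriers. The first group was CD24Mid, epithelial cells sorted by flow cytometry for intermediate CD24, a surface glycoprotein high near the crypt base, and the second was CD24Neg, cells without CD24. Both groups had been depleted of leukocytes, by their antigen CD45, and of cells that bind Ulex europaeus agglutinin I, a lectin for fucosylated glycans of secretory cells. RNA was sequenced in 4 libraries of CD24Mid (numbered 1, 3, 5 and 7) and 4 of CD24Neg (numbered 2, 4, 6 and 8), described by the submitters as biological replicates. The sources used here do not give strain, age, sex, gut segment, any batch or the number of animals behind a library.

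Protein digestion in the gut lumen ends in free amino acids and short peptides, which absorptive enterocytes take up across the brush border membrane and release across the basolateral membrane into the blood. Dividing crypt cells are fed from the blood side, mainly through exchangers and sodium-coupled carriers of glutamine, of large neutral and of cationic amino acids. Several carriers work as pairs of a light chain that carries the amino acid (Slc7 family) and a heavy chain that brings it to the membrane: Slc3a1 partners Slc7a9 at the brush border, and Slc3a2 partners Slc7a5, Slc7a6, Slc7a7 and Slc7a8 at other membranes.

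The libraries held 11340782 to 18928233 reads unique to 1 gene. Mitochondrially encoded genes took 8.03% to 9.18% of the reads in CD24Mid and 27.7% to 37.0% in CD24Neg, and the scaling used here (TMM, trimmed mean of M values) is meant to offset such a shift in composition. The sorting antigen gene Cd24a stood at 194 ± 43.4 CPM in CD24Mid against 28.6 ± 8.37 CPM in CD24Neg (CPM, the count scaled to TMM-adjusted depth; SD, n = 4 libraries each), and the epithelial marker Epcam at 1300 ± 124 and 1378 ± 61.9 CPM. Summed over 10 enterocyte markers, libraries reached 1544 to 2506 CPM in CD24Mid against 29258 to 49057 CPM in CD24Neg, and over 10 markers of stem and dividing crypt cells 4065 to 5540 and 228.8 to 582.3 CPM. Other cell types also differed. For 10 enteroendocrine markers the summed CPM of CD24Mid libraries ran from 289 to 814 and that of CD24Neg libraries from 73.4 to 116, with 8 called higher in CD24Mid. For plasma and B cell markers it ran from 394.5 to 1011 and from 22.6 to 53.8, with 5 of 6 tested called higher in CD24Mid. For T cell markers it ran from 5.31 to 14.98 and from 29.9 to 525.5, with 6 of 6 tested called higher in CD24Neg. For goblet cell markers it ran from 3415 to 5303 and from 12226 to 34480, with 5 of 7 called higher in CD24Neg. For ileum markers it ran from 52.9 to 143.9 and from 732.6 to 1955, with 4 of 4 called higher in CD24Neg. Myeloid markers (3 of 5 tested) and tuft cell markers (2 of 4 tested) had members called higher in CD24Mid and none in CD24Neg, Paneth cell markers had 1 of 7, and of the markers of the proximal gut 2 of 4 were called higher in CD24Neg. Ptprc, the gene of the depleted antigen CD45, was at 5.42 ± 2.89 CPM in CD24Mid against 17.99 ± 15.8 CPM in CD24Neg and was 3.29-fold higher in CD24Neg (edgeR adjusted p = 0.0385). The part of these cell types in the values below was not tested, and in bulk RNA fewer cells of a type and less RNA per cell cannot be told apart. As no source says that replicates came from separate animals, p-values measure the spread between these libraries alone.

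Of the 71 genes, 9 had no read in any library and 22 had reads but too few to be tested. The filter asked for about 10 reads in at least 4 libraries, or 0.6425 CPM. Of the 40 genes that passed it, which are 39 carriers and Slc7a6os, 12 were higher in CD24Mid, 20 in CD24Neg and 8 were not called, at a threshold of 0.05 on the adjusted p of edgeR. That was 30% and 50% of the genes tested here, beside 35.5% and 34.3% of all 12840 genes tested. Counting either direction, 80% were called, beside 69.8% of all genes, and the CPM ranges of the groups did not overlap in the same share, beside 64.4% of all genes. Of larger changes, 20% of the tested carriers were called and over 4-fold higher in CD24Mid, beside 8.78% of all genes, and 30% of them were called and over 4-fold higher in CD24Neg, beside 8% of all genes. The median log2 fold change (CD24Mid over CD24Neg, so that negative values are higher in CD24Neg) was -0.39 over the 40 carriers and 0.015 over all genes. For 3 of the 40 (Slc1a2, Slc38a4 and Slc6a3) no library of the lower group reached the filter, so they could pass only by being high in the other group. Without them 10 were higher in CD24Mid, 19 higher in CD24Neg and 8 not called, and the shares called and over 4-fold were 16.2% toward CD24Mid and 29.7% toward CD24Neg. Genes with only some libraries of the lower group over the filter stay in these counts. Among them is Slc7a2, with 3, 13, 6 and 7 reads in the CD24Neg libraries, which also passed through its CD24Mid libraries.

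Summed over all 71 genes, the carriers came to 1804 ± 143 CPM in CD24Mid against 5605 ± 906 CPM in CD24Neg (SD, n = 4 each). As a plain share of reads, with no scaling, they took 0.225% to 0.265% of a CD24Mid library and 0.350% to 0.503% of a CD24Neg library. The lists of roles used below were the carriers of apical uptake, of basolateral exit, of the supply of growing cells, of lysosomes and other inner membranes, and of osmolytes, creatine, monoamines and GABA. The sums of these lists went different ways. Apical uptake carriers summed to 233 ± 48.2 CPM in CD24Mid against 2155 ± 398 CPM in CD24Neg, and exit carriers to 244 ± 42.6 and 1422 ± 314 CPM. Carriers that supply growing cells summed to 717 ± 47.4 CPM in CD24Mid against 604 ± 19.8 CPM in CD24Neg, and members of this list changed in both directions. As a plain share of reads they took 0.0893% to 0.108% of CD24Mid libraries and 0.0413% to 0.0460% of CD24Neg libraries, so the size of this gap depends on scaling.

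**Figure D1:**
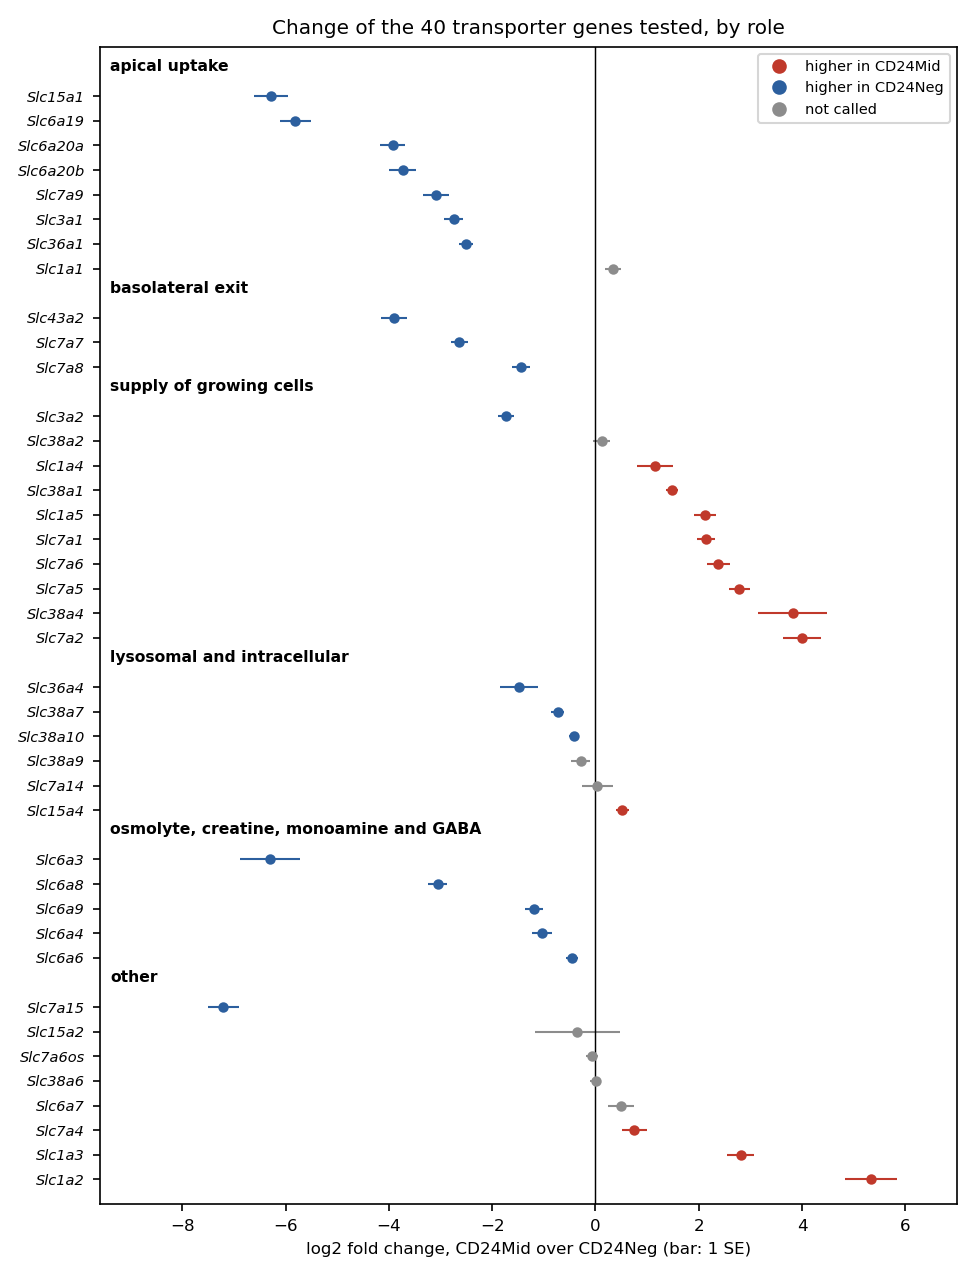
Log2 fold change of each of the 40 tested carriers, CD24Mid over CD24Neg, grouped by role, with bars of 1 standard error. All apical and exit carriers tested lie left of 0 (higher in CD24Neg) except Slc1a1, while 8 of the 10 tested carriers that supply growing cells lie right of 0 and are called.

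The promoter windows of 4 called carriers are shown because these genes move with their role and differ in CpG content: Slc15a1 and Slc6a19 for apical uptake, Slc7a7 for exit, and Slc7a6 for growing cells, which shares its heavy chain with Slc7a7. Each window runs from 250 bases before to 50 bases after the start of the gene in RefSeq on GRCm38.p6, a later build than that of the reads, and is written from 5′ to 3′ with each CpG in capitals. The windows lie at chr14:121505205-121505504 on the minus strand (Slc15a1), chr13:73692587-73692886 on the minus strand (Slc6a19), chr14:54417895-54418194 on the minus strand (Slc7a7) and chr8:106168604-106168903 on the plus strand (Slc7a6).
Slc15a1: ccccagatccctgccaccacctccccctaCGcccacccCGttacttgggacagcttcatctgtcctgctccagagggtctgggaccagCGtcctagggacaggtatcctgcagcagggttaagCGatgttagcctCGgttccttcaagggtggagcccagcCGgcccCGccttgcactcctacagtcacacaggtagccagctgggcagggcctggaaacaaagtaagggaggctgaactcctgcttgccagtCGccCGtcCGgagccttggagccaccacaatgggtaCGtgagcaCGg
Slc6a19: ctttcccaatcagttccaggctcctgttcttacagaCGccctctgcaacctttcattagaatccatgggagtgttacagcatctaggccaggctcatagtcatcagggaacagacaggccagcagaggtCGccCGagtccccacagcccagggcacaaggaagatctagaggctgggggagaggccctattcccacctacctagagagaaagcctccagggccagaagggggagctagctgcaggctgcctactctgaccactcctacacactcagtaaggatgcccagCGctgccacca
Slc7a7: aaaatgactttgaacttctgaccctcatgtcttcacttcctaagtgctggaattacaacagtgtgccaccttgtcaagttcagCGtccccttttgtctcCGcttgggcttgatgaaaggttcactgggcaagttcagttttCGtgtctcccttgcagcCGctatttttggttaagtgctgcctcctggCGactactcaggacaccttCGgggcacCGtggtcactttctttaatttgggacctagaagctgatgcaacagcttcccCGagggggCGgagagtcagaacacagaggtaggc
Slc7a6: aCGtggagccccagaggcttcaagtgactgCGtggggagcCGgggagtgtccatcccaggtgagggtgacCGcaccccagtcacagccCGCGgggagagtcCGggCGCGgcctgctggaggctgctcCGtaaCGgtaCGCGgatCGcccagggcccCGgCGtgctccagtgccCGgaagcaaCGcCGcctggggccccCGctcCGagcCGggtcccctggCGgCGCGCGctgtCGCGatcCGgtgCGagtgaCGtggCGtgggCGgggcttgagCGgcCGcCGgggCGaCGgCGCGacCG
These windows hold 12, 4, 9 and 41 CpG, in the order printed. Slc7a7 has 5 windows with 5 to 13 CpG and Slc7a6 has 2 with 41 and 42, of which the first listed is shown.

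Most carriers of apical uptake were higher in CD24Neg. The largest change was that of the proton-coupled peptide transporter Slc15a1, but it overlapped that of Slc6a19 within 1 SE, and no test compared them. Of the 10 on the list 8 were tested, of which 7 were higher in CD24Neg, none was higher in CD24Mid and 1 was not called, and all 7 changed over 4-fold. Of all genes tested, 34.3% were higher in CD24Neg, and 8% were called and over 4-fold higher there. The median log2 fold change of the 8 carriers was -3.41, beside 0.015 for all genes. Slc15a1 (ENSMUSG00000025557), which takes up dipeptides and tripeptides, had 6.11, 4.32, 5.15 and 4.10 CPM in the CD24Mid libraries, against 256, 377, 622 and 278 CPM in the CD24Neg libraries. The groups were far apart, and the CD24Neg libraries were uneven, with replicate 6 the highest. It was 77.9-fold higher in CD24Neg (log2 change -6.28 ± 0.33 SE, edgeR adjusted p = 1.43e-07). Slc6a19 (ENSMUSG00000021565), the sodium-coupled carrier of neutral amino acids mutated in human Hartnup disorder, had 16.4, 10.4, 7.99 and 7.48 CPM in CD24Mid, against 483, 583, 771 and 529 CPM in CD24Neg. Replicate 6 was again the highest of CD24Neg, and the fold was 56.1 toward CD24Neg (log2 change -5.81 ± 0.29 SE, edgeR adjusted p = 1.35e-07).

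The proline and imino acid carrier Slc6a20a had 46.5, 23.6, 25.7 and 25.8 CPM in CD24Mid, against 443.5, 471, 572 and 364 CPM in CD24Neg. CD24Mid replicate 1 lay well above the other CD24Mid libraries, yet far below any CD24Neg library. The fold was 15.2 toward CD24Neg (log2 change -3.93 ± 0.25 SE, edgeR adjusted p = 3.05e-07). Its close copy Slc6a20b, the next coding gene on chromosome 9, was scarcer per length (0.425 against 13.8 CPM per kilobase in CD24Mid), with means of 1.68 ± 0.376 CPM in CD24Mid against 22.4 ± 7.09 CPM in CD24Neg, and moved by a like amount (log2 change -3.74 ± 0.26 SE, edgeR adjusted p = 5.05e-07). Only reads unique to 1 gene were counted, and estimated counts that include shared reads were 1.19 times the unique counts for Slc6a20a and 1.08 times for Slc6a20b, so that the split between the copies is uncertain.

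Cystine and cationic amino acids enter through Slc7a9 and its heavy chain Slc3a1, the pair of genes mutated in human cystinuria. Slc7a9 averaged 39.9 ± 17.5 CPM in CD24Mid against 339 ± 28.2 CPM in CD24Neg, 8.497-fold higher in CD24Neg (log2 change -3.09 ± 0.26 SE, edgeR adjusted p = 1.82e-06). Slc3a1 had 28.2, 17.5, 23.5 and 22.4 CPM in CD24Mid, against 122, 159, 197.5 and 137 CPM in CD24Neg. It was 6.72-fold higher in CD24Neg (log2 change -2.75 ± 0.19 SE, edgeR adjusted p = 4.58e-07), and its estimated counts were 1.33 times the unique ones. Slc36a1, the proton-coupled carrier of glycine, alanine and proline, had 21.9, 20.04, 21.6 and 21.7 CPM in CD24Mid, against 97.4, 114.5, 145.4 and 125.6 CPM in CD24Neg. Its CD24Mid libraries were the most even of the list, and the fold was 5.67 toward CD24Neg (log2 change -2.50 ± 0.13 SE, edgeR adjusted p = 1.43e-07).

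The apical carrier that stood apart from the list was Slc1a1, which takes up glutamate and aspartate. It had 115, 83.8, 106.7 and 99.9 CPM in CD24Mid, against 97.7, 68.4, 63.8 and 89.9 CPM in CD24Neg. The groups overlapped, and it was not called (log2 change 0.34 ± 0.16 SE, edgeR adjusted p = 0.069). It was called higher in CD24Mid with upper-quartile scaling (0.56), on unscaled totals (1.29), without the filter on low counts (0.45), with a minimum mean of 100 reads (0.44), and without CD24Mid replicate 3 (0.43), CD24Neg replicate 2 (0.49) or CD24Neg replicate 8 (0.45), so its call depends on such choices. It was also called when libraries with consecutive numbers (1 and 2, 3 and 4, 5 and 6, 7 and 8) were fitted as blocks (0.36, edgeR adjusted p = 0.0122). The other members of the list, Slc6a18 and Slc6a14, both carriers of neutral amino acids (Slc6a14 also of cationic ones), had too few reads to be tested. Slc6a18 had 5 reads in CD24Mid and 27 in CD24Neg, and Slc6a14 had 15 and 17.

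The carriers of basolateral exit that were tested were also higher in CD24Neg. All 3 tested of the 5 on the list were higher in CD24Neg, beside 34.3% of all genes. The median log2 fold change of the 3 was -2.64. Slc43a2 (ENSMUSG00000038178), a uniporter of large neutral amino acids, had 65.6, 36.3, 42.1 and 54.6 CPM in CD24Mid, against 601, 688.5, 1033 and 643 CPM in CD24Neg. It was 14.9-fold higher in CD24Neg (log2 change -3.90 ± 0.25 SE, edgeR adjusted p = 3.05e-07), the furthest of the exit carriers. Slc7a7, the exchanger for the exit of cationic amino acids and the gene mutated in human lysinuric protein intolerance, had 57.3, 38.8, 39.7 and 38.6 CPM in CD24Mid, against 287, 260.0, 313 and 228 CPM in CD24Neg. CD24Mid replicate 1 lay above the other CD24Mid libraries, and the fold was 6.24 toward CD24Neg (log2 change -2.64 ± 0.16 SE, edgeR adjusted p = 2.86e-07). Slc7a8, an exchanger of neutral amino acids, had 182, 132, 155 and 132 CPM in CD24Mid, against 385, 396, 538 and 317 CPM in CD24Neg. Its fold of 2.72 was the smallest of the exit carriers (log2 change -1.44 ± 0.18 SE, edgeR adjusted p = 2.67e-05). The uniporter Slc43a1 had 53 reads in CD24Mid and 6 in CD24Neg, and the glutamine carrier Slc38a5 had 2 and 0, both too few to be tested. Slc43a1 went the other way from the list: without the filter on low counts it was called higher in CD24Mid (log2 change 1.98, edgeR adjusted p = 0.019). It was also called so without CD24Mid replicate 7 or without CD24Neg replicate 2, 4 or 8, and was tested but not called without CD24Neg replicate 6. In these fits Slc43a1 passed the filter only by its CD24Mid libraries, so those calls add no support.

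**Figure D2:**
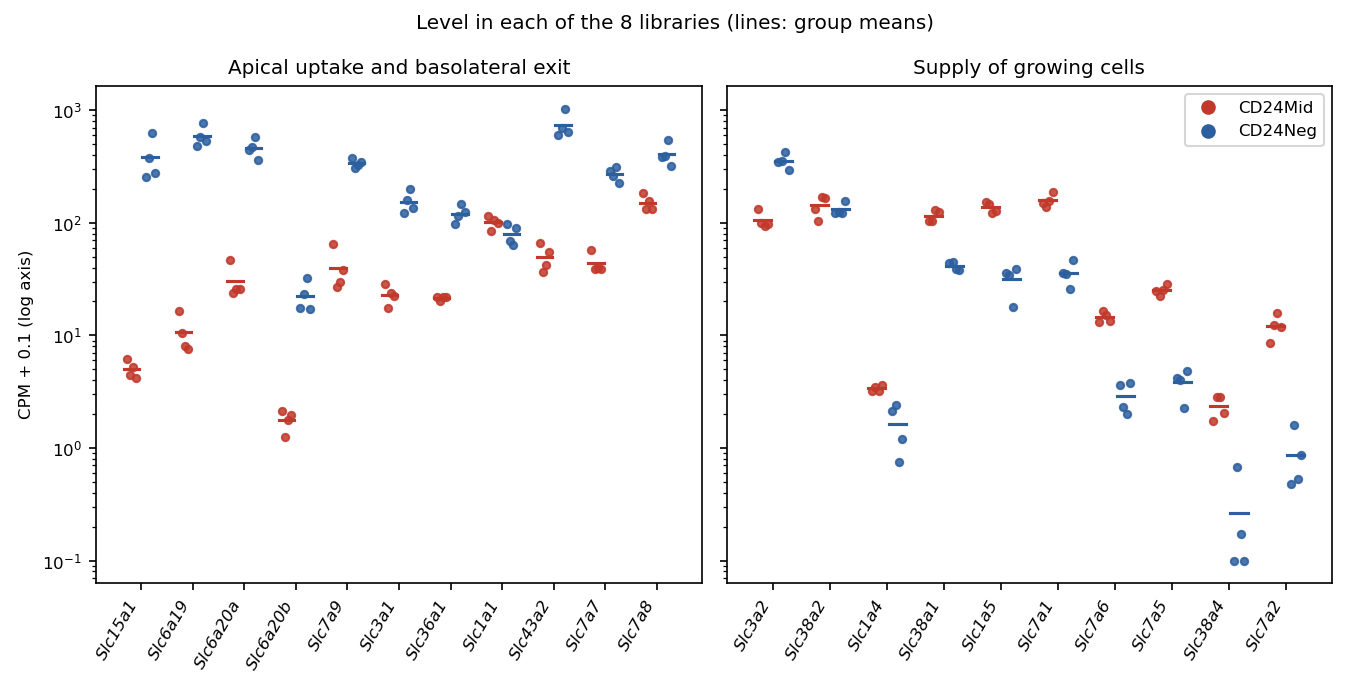
Level of apical and exit carriers (left) and of carriers that supply growing cells (right) in each of the 4 CD24Mid and 4 CD24Neg libraries, as CPM plus 0.1 on a log axis, with lines at group means. The groups are apart for every gene shown except Slc1a1 and Slc38a2, and Slc3a2 is the one gene of the right panel with all CD24Neg libraries above all CD24Mid libraries.

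Carriers that supply growing cells were mostly higher in CD24Mid. Of the 11 on the list 10 were tested, of which 8 were higher in CD24Mid, 1 (Slc3a2) in CD24Neg, and 1 (Slc38a2) was not called, with a median log2 fold change of 2.14. Without Slc38a4, which could pass the filter only by being high in CD24Mid, 7 of 9 were higher in CD24Mid, beside 35.5% of all genes. These 7 still include Slc7a2, which also passed through its CD24Mid libraries. Among carriers of cationic amino acids, Slc7a2 had 8.48, 12.4, 15.8 and 11.8 CPM in CD24Mid, against 0.380, 1.505, 0.436 and 0.773 CPM in CD24Neg, and was 16.0-fold higher in CD24Mid (log2 change 4.00 ± 0.36 SE, edgeR adjusted p = 3.08e-06). The level of Slc7a2 in CD24Neg rested on 29 reads in all, and as it passed the filter through CD24Mid, its p-value adds no support. Slc7a1, the carrier of arginine and lysine present in most dividing cells, was more abundant per length (26.2 CPM per kilobase in CD24Mid, where Slc7a2 was at 1.86) and averaged 158 ± 19.8 CPM in CD24Mid against 35.8 ± 8.60 CPM in CD24Neg, and was 4.43-fold higher in CD24Mid (log2 change 2.15 ± 0.17 SE, edgeR adjusted p = 1.38e-06).

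The light chains Slc7a5 and Slc7a6, which join Slc3a2, were higher in CD24Mid. Slc7a5, the exchanger that brings leucine and other large neutral amino acids into growing cells, had 24.5, 22.5, 25.2 and 28.3 CPM in CD24Mid, against 4.05, 3.93, 2.18 and 4.75 CPM in CD24Neg. The fold was 6.88 toward CD24Mid (log2 change 2.78 ± 0.21 SE, edgeR adjusted p = 7.79e-07). Slc7a6, an exchanger of cationic for neutral amino acids, averaged 14.4 ± 1.51 CPM in CD24Mid against 2.82 ± 0.905 CPM in CD24Neg and was 5.20-fold higher in CD24Mid (log2 change 2.38 ± 0.22 SE, edgeR adjusted p = 3.35e-06). Their heavy chain Slc3a2 moved the other way. It had 134, 100.4, 93.8 and 96.9 CPM in CD24Mid, against 347.5, 352, 422 and 296 CPM in CD24Neg. The groups did not overlap, and it was 3.34-fold higher in CD24Neg (log2 change -1.74 ± 0.15 SE, edgeR adjusted p = 2.41e-06).

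Among carriers of glutamine and small neutral amino acids, Slc1a5 averaged 137 ± 14.2 CPM in CD24Mid against 31.5 ± 9.44 CPM in CD24Neg and was 4.37-fold higher in CD24Mid (log2 change 2.13 ± 0.21 SE, edgeR adjusted p = 6.53e-06). Slc38a1 averaged 115 ± 14.1 CPM in CD24Mid against 41.3 ± 3.69 CPM in CD24Neg, a 2.79-fold difference (log2 change 1.48 ± 0.12 SE, edgeR adjusted p = 1.26e-06). Slc1a4, a carrier of alanine, serine and cysteine, had 3.10, 3.39, 3.14 and 3.54 CPM in CD24Mid, against 2.03, 2.31, 0.654 and 1.10 CPM in CD24Neg. It was even in CD24Mid and uneven in CD24Neg, where it rested on 55 reads, and was 2.23-fold higher in CD24Mid (log2 change 1.15 ± 0.34 SE, edgeR adjusted p = 0.0114). Slc38a4, a carrier of neutral and cationic amino acids, had 207 reads in CD24Mid and 6 in CD24Neg, of which 5 were in replicate 4 (log2 change 3.82 ± 0.66 SE, edgeR adjusted p = 0.00038). As it was tested only because it was high in CD24Mid, that p-value adds no support. Slc38a2, a glutamine carrier induced when amino acids run short, had 132, 104, 169.5 and 166 CPM in CD24Mid, against 122, 124, 122 and 157 CPM in CD24Neg. The groups overlapped and it was not called (log2 change 0.12 ± 0.16 SE, edgeR adjusted p = 0.52), though it was called higher in CD24Mid on unscaled totals (1.07). The cystine and glutamate exchanger Slc7a11 had 42 reads in CD24Mid and 17 in CD24Neg and was not tested.

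Slc38a1, Slc38a2 and Slc38a4 lie next to each other on chromosome 15 with no coding gene between them, and their log2 fold changes were 1.48, 0.12 and 3.82. Slc7a6 and Slc7a6os, neighbours on chromosome 8, also differed: Slc7a6os averaged 28.0 ± 1.19 CPM in CD24Mid against 29.4 ± 4.94 CPM in CD24Neg and was not called (log2 change -0.07 ± 0.12 SE, edgeR adjusted p = 0.64), but was at 0.88 and called on unscaled totals. Reads of overlapping genes on opposite strands could not be told apart, as no source used here gives the strand setting of the counting.

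Carriers of lysosomes and other inner membranes had no change over 4-fold. Of the 8 on the list 6 were tested, of which 1 was higher in CD24Mid, 3 in CD24Neg, and 2 were not called, with a median log2 fold change of -0.36. Of all genes tested 69.8% were called in either direction, so calls were no more common in this list. On unscaled totals 4 were higher in CD24Mid and 0 in CD24Neg, so the direction of this list depends on scaling. There the median over all genes moved to 0.96. Relative to the median of all genes this list was at -0.37 both with TMM and on unscaled totals. Slc36a4, a carrier of proline and tryptophan, had 0.679, 1.02, 0.837 and 1.41 CPM in CD24Mid, against 3.42, 4.28, 1.53 and 2.10 CPM in CD24Neg, on 91 and 104 reads (log2 change -1.49 ± 0.37 SE, edgeR adjusted p = 0.0043). Slc38a7, which exports glutamine from lysosomes, had 15.3, 14.2, 15.4 and 12.5 CPM in CD24Mid, against 24.5, 26.0, 25.0 and 19.4 CPM in CD24Neg (log2 change -0.73 ± 0.13 SE, edgeR adjusted p = 0.0004), but was at 0.21 on unscaled totals. Slc38a10 had 121, 103, 104 and 105 CPM in CD24Mid, against 136, 149, 156 and 138 CPM in CD24Neg (log2 change -0.42 ± 0.10 SE, edgeR adjusted p = 0.0028), and was at 0.52 and called higher in CD24Mid on unscaled totals.

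The lysosomal histidine and peptide carrier Slc15a4 was the one of this list that was higher in CD24Mid. It had 14.2, 14.2, 14.3 and 12.9 CPM in CD24Mid, against 10.3, 11, 8.79 and 8.83 CPM in CD24Neg, a 1.43-fold difference (log2 change 0.52 ± 0.12 SE, edgeR adjusted p = 0.0032). Slc38a9, the lysosomal arginine sensor of the growth kinase complex mTORC1, had 5.53, 5.998, 5.90 and 6.03 CPM in CD24Mid, against 6.84, 5.79, 6.68 and 9.38 CPM in CD24Neg. It was not called (log2 change -0.29 ± 0.18 SE, edgeR adjusted p = 0.16; 0.66 on unscaled totals). Slc7a14 was at 0.951 ± 0.158 CPM in CD24Mid against 0.937 ± 0.267 CPM in CD24Neg and was not called (log2 change 0.04 ± 0.30 SE, edgeR adjusted p = 0.92), but was at 0.97 and called higher in CD24Mid on unscaled totals (edgeR adjusted p = 0.0113).

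All 5 carriers tested of the 10 on the list of osmolytes, creatine, monoamines and GABA were higher in CD24Neg, with a median log2 fold change of -1.19, but on unscaled totals 2 were (Slc6a3 and Slc6a8) and 1 (Slc6a6) was higher in CD24Mid. Relative to the median of all genes the list was at -1.2 in both settings. Without Slc6a3, which could pass the filter only by being high in CD24Neg, 4 of 4 were higher in CD24Neg with TMM, beside 34.3% of all genes. The creatine carrier Slc6a8 had 94.9, 60.6, 62.5 and 73.2 CPM in CD24Mid, against 504, 614, 736 and 567 CPM in CD24Neg, and was 8.32-fold higher in CD24Neg (log2 change -3.06 ± 0.18 SE, edgeR adjusted p = 2.42e-07). The serotonin carrier Slc6a4 had 60.8, 40.4, 38.2 and 32.2 CPM in CD24Mid, against 105, 77.9, 89.7 and 78.3 CPM in CD24Neg, a 2.05-fold difference (log2 change -1.03 ± 0.19 SE, edgeR adjusted p = 0.00054). The taurine carrier Slc6a6 had 151, 125, 142 and 157 CPM in CD24Mid, against 188.5, 203, 217 and 180.1 CPM in CD24Neg (log2 change -0.46 ± 0.11 SE, edgeR adjusted p = 0.0033), and was at 0.48 on unscaled totals.

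The glycine carrier Slc6a9 averaged 4.29 ± 0.683 CPM in CD24Mid against 9.78 ± 1.07 CPM in CD24Neg (log2 change -1.19 ± 0.17 SE, edgeR adjusted p = 0.00011), and its estimated counts were 1.86 times the unique ones. The dopamine carrier Slc6a3 was near 0 in CD24Mid, with 3 reads there and 128 in CD24Neg. The ratio of CD24Neg to CD24Mid was 98.5, with a 95% exact interval of 32.97 to 484 that covers counting error only. It lies on chromosome 13 near Slc6a18 and Slc6a19, with 2 coding genes between it and Slc6a18.

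Among the carriers outside these lists, Slc7a15 (ENSMUSG00000020600) showed the largest change of all 40. This carrier, named in mice for its preference for aromatic amino acids, had 1.26, 1.30, 1.004 and 1.09 CPM in CD24Mid, against 125.0, 160, 269 and 135.5 CPM in CD24Neg. The CD24Mid libraries were even and low, and the fold was 148 toward CD24Neg (log2 change -7.21 ± 0.30 SE, edgeR adjusted p = 9.35e-08). At the other end stood glutamate carriers known best from brain astrocytes. Slc1a2 had 5.19, 7.67, 11.9 and 5.03 CPM in CD24Mid, against 0.253, 0, 0.218 and 0.221 CPM in CD24Neg, on 682 and 7 reads (log2 change 5.34 ± 0.51 SE, edgeR adjusted p = 4.34e-06). No CD24Neg library reached the filter for Slc1a2, so it was tested only because it was high in CD24Mid, and its p-value adds no support. Slc1a3 averaged 32.9 ± 7.60 CPM in CD24Mid against 4.71 ± 1.88 CPM in CD24Neg and was 7.02-fold higher in CD24Mid (log2 change 2.81 ± 0.26 SE, edgeR adjusted p = 3.86e-06). Of 10 markers of stroma, vessel, muscle and nerve 2 were tested and 1 was called higher in CD24Mid, and their summed level ran from 9.75 to 13.1 CPM in CD24Mid and from 2.78 to 11.5 CPM in CD24Neg. The neuronal markers Tubb3 and Elavl4 had 45 and 4 reads in CD24Mid, against 1 and 0 in CD24Neg. In the rest of this list, Vim and Acta2 had the higher mean CPM in CD24Mid, and Col1a1, Col1a2, Col3a1, Pecam1, Cdh5 and Des in CD24Neg. The part of nerve cells in the values of Slc1a2 and Slc1a3 was not tested.

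Slc7a4, grouped with cationic amino acid carriers by sequence, averaged 15.7 ± 1.58 CPM in CD24Mid against 9.47 ± 3.75 CPM in CD24Neg and was higher in CD24Mid (log2 change 0.75 ± 0.24 SE, edgeR adjusted p = 0.0177). The proline carrier Slc6a7 had 15.3, 11.1, 11 and 8.00 CPM in CD24Mid, against 12.4, 6.37, 6.83 and 6.74 CPM in CD24Neg. It was not called (log2 change 0.50 ± 0.25 SE, edgeR adjusted p = 0.10), but it was without CD24Neg replicate 2 (0.80), without CD24Mid replicate 7 (0.64), with upper-quartile scaling (0.72), on unscaled totals (1.44), without the filter on low counts (0.60) and with consecutive library numbers as blocks (0.51, edgeR adjusted p = 0.0085). Slc38a6 had the smallest difference of all 40, at 96.7 ± 8.30 CPM in CD24Mid against 96.3 ± 7.28 CPM in CD24Neg (log2 change 0.0052 ± 0.10 SE, edgeR adjusted p = 0.97), but was at 0.95 and called on unscaled totals. Its estimated counts were 2.59 times the unique ones, the highest such ratio among the carriers tested, so much of its signal was shared with other genes. Among carriers too low to test, Slc38a11 had 69 reads in CD24Mid and 3 in CD24Neg (ratio 9.96, 95% exact interval 3.27 to 49.5), and Slc38a8 had 2 and 46 (ratio of CD24Neg to CD24Mid 53.1, 95% exact interval 13.9 to 452). These intervals cover counting error only. Like that of Slc6a3, they were made for genes chosen for few reads in 1 group and more in the other, so they add no support.

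By family, the tested members split in different ways, beside 35.5% of all genes tested that were higher in CD24Mid and 34.3% in CD24Neg. In Slc6, 8 of 9 tested members were higher in CD24Neg and 0 in CD24Mid, while in Slc1 4 of 5 were higher in CD24Mid and 0 in CD24Neg. Without Slc6a3 and Slc1a2, which could pass the filter only through the group where they are high, these were 7 of 8 and 3 of 4. Both heavy chains (Slc3) and both tested members of Slc36 were higher in CD24Neg, as was Slc43a2, the one tested member of its family. The Slc7 family was mixed, with 5 higher in CD24Mid, 4 higher in CD24Neg and 2 not called, and so was Slc38, with 2 higher in each group and 3 not called (1 higher in CD24Mid and 2 in CD24Neg without Slc38a4). In Slc15 the peptide carriers split 3 ways: Slc15a4 was higher in CD24Mid, Slc15a1 was higher in CD24Neg, and Slc15a2 was not called. On unscaled totals the counts higher in CD24Mid and CD24Neg were 2 and 5 in Slc6, 5 and 0 in Slc1, 7 and 4 in Slc7, 6 and 0 in Slc38, and 0 and 1 in Slc36, so the balance in Slc38 depends on scaling. There the median log2 fold change over all genes was 0.96. Relative to that median Slc38 was at -0.0078, beside -0.010 with TMM.

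Levels were compared between genes as CPM per kilobase of the deposited effective length. In CD24Mid the highest was Slc1a5 at 65.4 ± 6.79, ahead of Slc3a2 at 50.5 ± 8.80 and Slc7a8 at 45.1 ± 7.12 CPM per kilobase (SD, n = 4). In CD24Neg the highest were the creatine carrier Slc6a8 at 270.1 ± 44.0 and Slc7a9 at 259 ± 21.6, which differed by less than their spread, followed by Slc6a20a at 210.3 ± 39.1 and Slc6a19 at 190.1 ± 40.7 CPM per kilobase. Next in CD24Neg came Slc3a2, Slc7a7 and Slc43a2 at 169, 166 and 163.5 CPM per kilobase, closer to each other than their spread of 22.3 to 43.6. The peptide carrier Slc15a1 came after these, at 1.93 ± 0.356 CPM per kilobase in CD24Mid and 150 ± 65.6 in CD24Neg. Slc3a2, Slc6a8, Slc7a8 and Slc7a9 were among the 10 highest in both groups, whereas Slc1a5 was at 15.1 CPM per kilobase in CD24Neg.

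**Figure D3:**
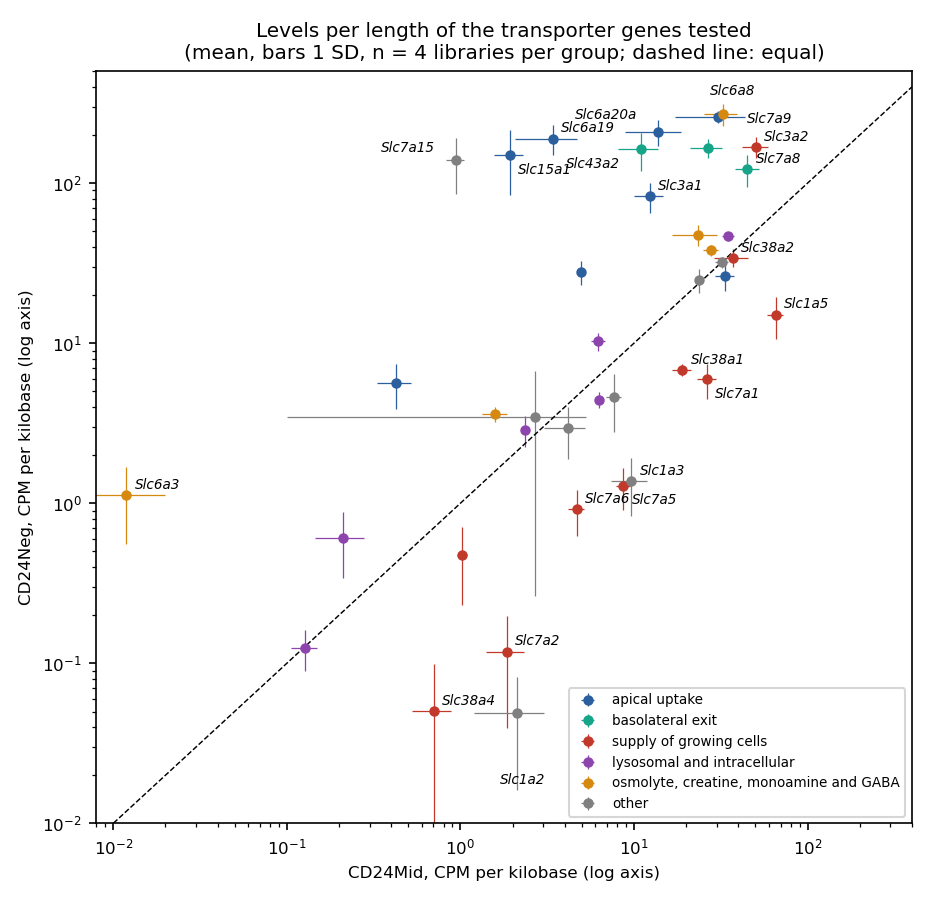
Mean level of each tested carrier in CD24Mid (x axis) against CD24Neg (y axis), both as CPM per kilobase on log axes, with bars of 1 SD (n = 4 libraries each) and colours for role. Slc6a8, Slc7a9, Slc6a20a and Slc6a19 lie highest in CD24Neg, between 190.1 and 270.1, while Slc1a5 lies furthest right in CD24Mid at 65.4.

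The ratio of 2 genes within a library does not depend on how libraries are scaled, and 7 pairs were compared by an exact two-sided permutation test over libraries, each gene taken per kilobase with 0.5 reads added. With 4 against 4 libraries the smallest p is 0.0286, and adjusted over the 7 pairs it is 0.0333. Slc7a9 over its heavy chain Slc3a1 was at a log2 ratio of 1.30 ± 0.35 in CD24Mid and 1.63 ± 0.40 in CD24Neg (SD, n = 4 each), and the difference of -0.33 did not pass the test (exact permutation p = 0.23, adjusted p = 0.23). Taken within consecutive library numbers, the ratio was lower in CD24Mid in all 4 pairs of libraries, by differences of -0.39 to -0.28. An exact sign-flip test of 4 such pairs cannot go below p = 0.125.

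The light chains of Slc3a2 moved relative to it in opposite directions. Slc7a5 over Slc3a2 was at a log2 ratio of -2.53 ± 0.30 in CD24Mid and -7.06 ± 0.68 in CD24Neg, a 23.1-fold higher ratio in CD24Mid (exact permutation p = 0.0286, adjusted p = 0.0333). Slc7a7 over Slc3a2 was at -0.93 ± 0.067 in CD24Mid and -0.042 ± 0.077 in CD24Neg, a 1.85-fold higher ratio in CD24Neg (same exact permutation p). Slc7a8 over Slc3a2 was at -0.16 ± 0.15 in CD24Mid and -0.49 ± 0.11 in CD24Neg, a difference of 0.33 and a 1.25-fold higher ratio in CD24Mid (same exact permutation p). That call was lost without any 1 of the CD24Mid libraries (exact permutation p = 0.0571), while within consecutive library numbers the difference was 0.24 to 0.39 in all 4 pairs of libraries. In every library of either group Slc7a5 was the scarcest per length of these 3 light chains.

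Slc7a6 over Slc7a7, light chains of similar substrates, was at a log2 ratio of -2.48 ± 0.39 in CD24Mid and -7.51 ± 0.61 in CD24Neg, a 32.6-fold higher ratio in CD24Mid (exact permutation p = 0.0286, adjusted p = 0.0333). Slc7a7 was nonetheless the more abundant of the pair per length in all 8 libraries. Slc1a5 over Slc6a19, carriers of neutral amino acids from the supply and the apical list, changed sign: the log2 ratio was 4.34 ± 0.37 in CD24Mid and -3.56 ± 0.62 in CD24Neg, a 240.1-fold difference (same exact permutation p). For both pairs, and for Slc7a5 over Slc3a2, the single genes already separated the groups without overlap and in opposite directions. Their ratios then had to separate the groups too, so these permutation p-values add no test beyond the single genes.

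**Figure D4:**
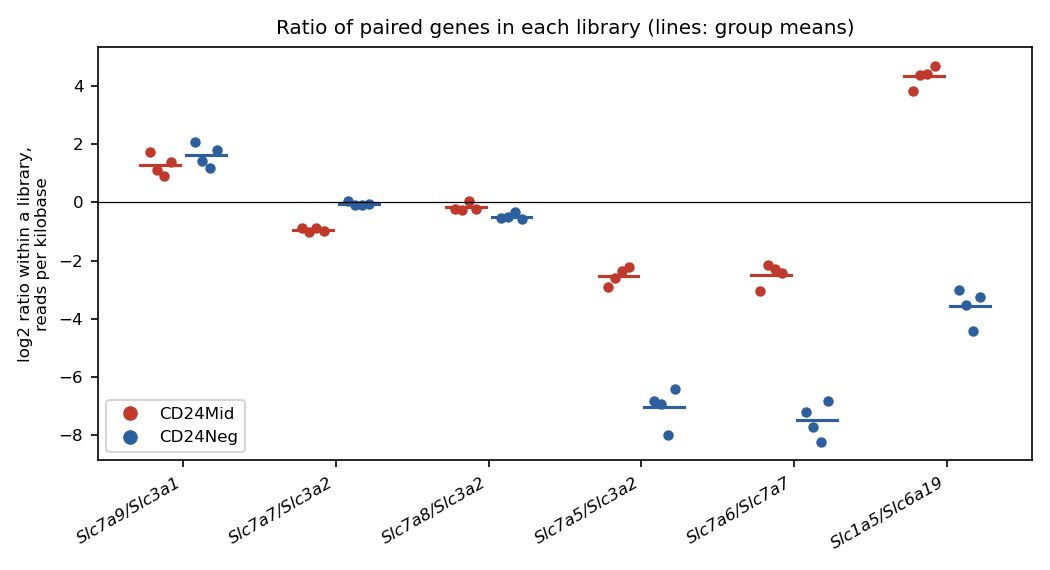
Log2 ratio of 2 genes within each library, in reads per kilobase, for 6 pairs in 4 CD24Mid and 4 CD24Neg libraries, with lines at group means. Of these pairs the groups overlap for Slc7a9 over Slc3a1 alone, and Slc1a5 over Slc6a19 lies at 4.34 in CD24Mid and at -3.56 in CD24Neg.

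Genes listed as partners of the carriers, mostly at the brush border, were higher in CD24Neg together with them where tested. Of 8 genes listed 7 were tested and all 7 were higher in CD24Neg, beside 34.3% of all genes. Their median log2 fold change was -3.45. Besides peptidases, scaffolds and other partners at the brush border, the list holds Slc16a10, an amino acid carrier of another family that is not a brush border gene. Pdzk1, a scaffold of apical carriers, averaged 1.499 ± 0.485 CPM in CD24Mid against 230 ± 88.6 CPM in CD24Neg (log2 change -7.26 ± 0.35 SE, edgeR adjusted p = 1.26e-07). Anpep, the aminopeptidase that frees amino acids from peptides at the brush border, averaged 278 ± 114 CPM in CD24Mid against 5606 ± 1075 CPM in CD24Neg (log2 change -4.34 ± 0.31 SE, edgeR adjusted p = 6.61e-07). Cltrn had 26 reads in CD24Mid and 9 in CD24Neg and was not tested.

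Of 30 genes listed for sensing amino acids for mTORC1, 28 were tested, of which 6 were higher in CD24Mid, 12 in CD24Neg, and 10 were not called. Called in either direction were 64.3% of them, beside 69.8% of all genes, with a median log2 fold change of -0.11. On unscaled totals 20 were higher in CD24Mid and 4 in CD24Neg, so the balance depends on scaling. Relative to the median of all genes, which moved to 0.96 there, this list was at -0.12 in both settings. Castor2, whose relative Castor1 senses arginine, averaged 3.54 ± 0.822 CPM in CD24Mid against 68.3 ± 16.9 CPM in CD24Neg (log2 change -4.27 ± 0.22 SE, edgeR adjusted p = 1.48e-07). The stress-induced inhibitor Sesn1 and the lysosomal cationic amino acid exporter Slc66a1 were also higher in CD24Neg, at log2 fold changes of -1.95 and -1.65. The largest changes toward CD24Mid were those of the sestrin Sesn3 (1.34), the folliculin partner Fnip2 (1.13) and the GATOR2 subunit Seh1l (0.995), each called by edgeR.

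The ATF4 response is switched on when amino acids are scarce and drives synthesis and uptake. Of 17 genes listed for it 16 were tested, of which 8 were higher in CD24Mid, 5 in CD24Neg, and 3 were not called. Called in either direction were 81.25% of them, beside 69.8% of all genes, with a median log2 fold change of 0.20. On unscaled totals the counts were 12 and 4, while relative to the median of all genes the list was at 0.18 in both settings. Sesn2, which was not called, stands on both lists. The largest changes toward CD24Mid were in the serine and folate enzymes Phgdh (log2 change 3.79 ± 0.22 SE, edgeR adjusted p = 1.91e-07), Psat1 (2.80 ± 0.20 SE) and Mthfd2 (2.30 ± 0.25 SE). Phgdh averaged 19.6 ± 2.76 CPM in CD24Mid against 1.45 ± 0.399 CPM in CD24Neg. The largest toward CD24Neg were in the stress regulators Trib3 (log2 change -4.68 ± 0.31 SE, edgeR adjusted p = 4.44e-07), Chac1 (-2.21 ± 0.40 SE) and Ddit3 (-2.08 ± 0.18 SE). Trib3 averaged 0.385 ± 0.199 CPM in CD24Mid against 9.90 ± 1.65 CPM in CD24Neg.

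Promoter windows of the kind printed above were found for 32 of 39 tested members, with Slc6a7 left out. Their median CpG number was 16.5, beside 21 for 9733 windows of all genes tested. Apical uptake carriers had a median of 9.5 CpG (range 1 to 32, 8 windows) and carriers that supply growing cells a median of 24 (range 5 to 41, 6 windows). Where a gene had more than 1 window, the first listed was used. For Slc7a1 of the supply list that window held 27 CpG and the other 7, and with the other the median of the list would be lower. No window was found for Slc1a5, Slc38a1, Slc7a2 and Slc7a5 of the supply list, all higher in CD24Mid, nor for Slc6a6, Slc6a8 and Slc7a4. The 6 supply windows include those of Slc3a2, higher in CD24Neg, and Slc38a2, not called, so they cover that list only in part. By call, the median was 21 in 7 members higher in CD24Mid and 13.5 in 18 members higher in CD24Neg, beside 22 and 19 in all genes called in these directions. The ranges of the lists overlap widely, and the called carriers of the supply list with a CpG number from 5 (Slc38a4) to 41 (Slc7a6) span most of the range seen.

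**Figure D5:**
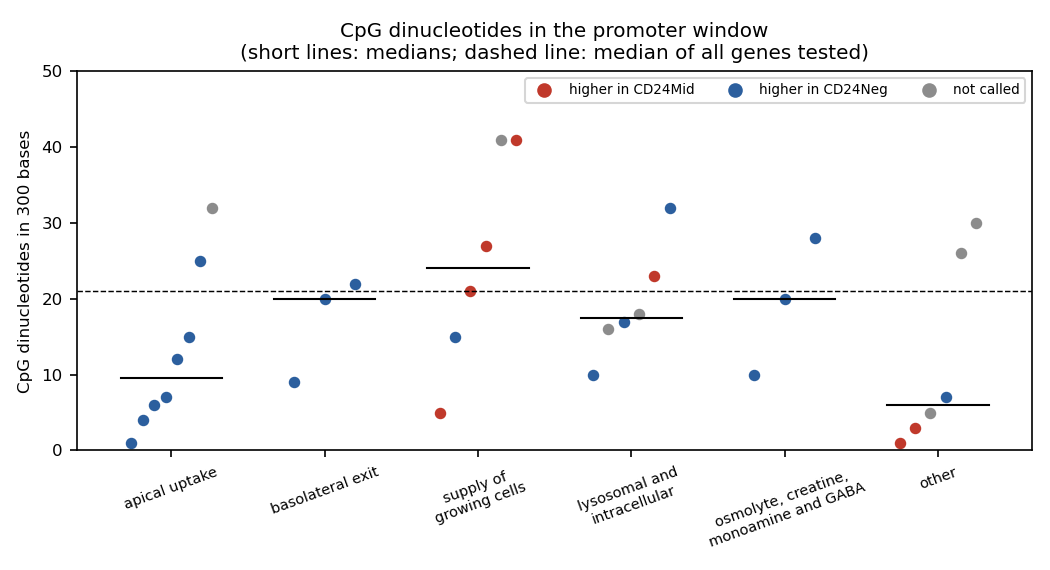
Number of CpG in the promoter window of 300 bases of each tested carrier that has one, by role, with points coloured by call, short lines at the median of each role and a dashed line at the median of all genes tested (21). By the first window listed for each gene, apical uptake carriers centre on 9.5 and carriers that supply growing cells on 24, with overlapping ranges.

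The windows were searched on both strands for 7 motifs, some of which can overlap in a window. The TATA box (TATAAA) was found in 3 of 32 windows (Slc1a3, Slc3a1 and Slc7a15), beside 7.12% of the windows of all genes tested, and CCAAT in 9, beside 39.0%. The GC box (GGGCGG) was found in 23, beside 64.2%. The core of the amino acid response element bound by ATF4 (TGATGNAA) was found in 2 (Slc1a4 and Slc7a7), beside 2.21%. An element of the kind bound by HNF4 (CAAAGTCCA) was found in 1 (Slc3a1), beside 0.514%, a longer HNF1-type element in 0, beside 0.0411%, and a CDX core (TTTATG) in 1 (Slc7a15), beside 6.32%. A match describes letters in the window and is not evidence of binding.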

How the data were processed

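Total RNA from flow-sorted mouse small intestinal epithelium was made into TruSeq libraries, per the labels' protocols. Reads were aligned with Bowtie 0.12.8 to NCBIM37, per the submitters' processing notes; the sources used here do not give the annotation release, strand setting, filters or counting version. The column names are those of MMSEQ. The authors deposited, for each gene, a count of fragments unique to that gene, an expression estimate that was read as a natural log from its values, and an effective length. Counting unique fragments alone lowers genes with near-identical copies. Between 89.1% and 92.6% of the 12401668 to 20445879 mapped fragments were unique to 1 gene. Depth set the floor: 3 reads equalled 0.121 to 0.145 CPM in CD24Mid and 0.218 to 0.380 CPM in CD24Neg.

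Groups came from the sample labels. The deposited counts went through the quasi-likelihood F test of edgeR 4.0.16 (R 4.3.3; robust, TMM scaling, filterByExpr) on group alone. P-values were adjusted by Benjamini-Hochberg across the 12840 genes tested, at a threshold of 0.05. Standard errors are the size of the log2 fold change divided by the root of F. The fit was tested on simulated data. Pair ratios used exact permutation tests and low counts used 95% exact intervals (SciPy 1.17.1), both of reads that may include PCR copies. Within groups, chi-square per degree of freedom between libraries was 11.5 to 62.9, more than sampling noise, and every library was kept as its own sample. Estimated counts (the natural-log estimate times effective length and mapped fragments), DESeq2 1.42.0, limma-voom 3.58.1, other scalings and filters, and leaving out each library were the alternatives. The titles number the libraries in turn between the groups, with no statement that neighbours belong together. Libraries with consecutive numbers deviated together from their group means (Pearson r across 12840 genes, which are not independent, 0.354 to 0.422, beside -0.351 to 0.0767 for other combinations), so a fit with these numbers as a block was added after the data were seen. Gene names, neighbours and promoter windows came from GENCODE and RefSeq tables of a later build, and NCBIM37 positions are not printed. The members, role lists, marker lists and motifs were chosen with earlier results of these data known. Genes that could be given in every library were the 3 lowest and 3 highest fold changes of each role list and the extremes of each family with a mean of at least 1 CPM; of other lists, the 3 largest called changes each way were named. Cd24a, Ptprc, Epcam, Cltrn, Slc16a10, Slc15a2 and the markers of stroma, vessel, muscle and nerve were named outside this rule, after their values were seen. A gene that this rule names, a gene with few reads and 1 pair are not reported here.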

Additional observations from a re-analysis of the deposited data

Results flagged for a closer look

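In each tested carrier and group, 4 libraries were checked for 1 that lies far from the other 3 by Dixon's criterion. Of 80 such groups 12 were picked out, where chance picks out about 1 in 20.

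In CD24Mid, replicate 1 was high for Slc3a2 (134 CPM, others 93.8 to 100.4), Slc6a20a (46.5 CPM, others 23.6 to 25.8), Slc7a7 (57.3 CPM, others 38.6 to 39.7) and Slc38a10 (121 CPM, others 103 to 105). The 10 enterocyte markers summed to 2506 CPM in the same library and to 1544 to 1923 CPM in the other CD24Mid libraries, with 8 of the 10 highest in replicate 1, and their part in these values was not tested. Each of these 4 genes is higher in CD24Neg, and its call held without CD24Mid replicate 1. Slc36a1 was low in CD24Mid replicate 3 (20.04 CPM, others 21.6 to 21.9), Slc15a4 in CD24Mid replicate 7 (12.9 CPM, others 14.2 to 14.3), and Slc6a3 in CD24Mid replicate 5 (0 CPM, others 0.040 to 0.048, each 1 read).

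In CD24Neg, Slc1a2 was at 0 CPM in replicate 4 (others 0.218 to 0.253), and Slc38a4 was at 0.579 CPM in the same library (others 0 to 0.073), both on fewer than 10 reads in the group. Slc38a2 was high in replicate 8 (157 CPM, others 122 to 124). Slc6a7 was high in replicate 2 (12.4 CPM, others 6.37 to 6.83), and without that library it was called higher in CD24Mid (log2 fold change 0.80, edgeR adjusted p = 0.0068). Slc38a6 was low in replicate 2 (85.5 CPM, others 98.7 to 101).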

How the results depend on the processing

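All 32 calls among the carriers held with DESeq2, RLE scaling, TMM without mitochondrially encoded genes, estimated counts, limma-voom, no filter on low counts, with each library left out in turn and with consecutive library numbers as a replicate block. A minimum mean of 100 reads left 26 of them, since the other 6 genes were not tested. With upper-quartile scaling, which moved the median log2 change over all genes to 0.24, 5594 genes were called toward CD24Mid and 3510 toward CD24Neg, and Slc38a10 (-0.20) and Slc6a6 (-0.23) lost their calls. On unscaled totals the median moved to 0.96. There 8959 genes were called toward CD24Mid and 1659 toward CD24Neg, beside 4557 and 4410 with TMM, and 21 carriers were higher in CD24Mid and 14 in CD24Neg. Slc38a10 (0.52), Slc38a7 (0.21), Slc38a9 (0.66), Slc6a6 (0.48), Slc15a2 (0.56) and Slc7a6os (0.88) turned direction on unscaled totals, Slc7a14 was called there (0.97), and Slc36a4, Slc6a4 and Slc6a9 lost their calls. Slc7a14, which is not called, ran from -0.052 without CD24Neg replicate 8 to 0.26 without CD24Neg replicate 4, and was at -0.033 without CD24Mid replicate 5. Slc15a2, also not called, ran from -1.25 without CD24Mid replicate 3 to 0.53 without CD24Neg replicate 4, and was at 0.0085 without CD24Mid replicate 5. Slc38a6 and Slc7a6os lay near 0 and changed sign. Slc38a6 was at -0.0034 with DESeq2 and -0.0032 with RLE scaling, and ran from -0.033 to 0.083 with 1 library left out. Slc7a6os was at 0.15 with upper-quartile scaling, 0.034 without the filter and 0.026 with a minimum mean of 100 reads, and ran from -0.098 to 0.089 with 1 library left out. With 1 library left out, the Slc7a8 over Slc3a2 difference ran from 0.25 to 0.38, and missed the threshold without any 1 of the CD24Mid libraries (exact permutation p = 0.0571). No number is shared between the groups. With consecutive numbers as a replicate block, 14 members were called toward CD24Mid and 20 toward CD24Neg, and 4908 and 4776 of all genes. Slc1a1 (0.36) and Slc6a7 (0.51) gained a call, and no other tested member changed its call. Depth limits the carriers with few reads: 31 of 71 were not tested.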

Other observations

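The peptide carrier Slc15a2, known from kidney and brain, varied between libraries rather than between the groups. It had 4.12, 12.97, 0.920 and 3.70 CPM in CD24Mid replicates 1, 3, 5 and 7, against 6.46, 16.1, 0.726 and 4.86 CPM in CD24Neg replicates 2, 4, 6 and 8. The highest of each group were replicates 3 and 4 and the lowest were replicates 5 and 6, and the log2 fold change was -0.35 ± 0.83 SE (edgeR adjusted p = 0.72), the widest error of the 40 carriers tested. Without CD24Mid replicate 3 the change was -1.25, and without CD24Neg replicate 4 it was 0.53, so its direction rests on single libraries. With consecutive library numbers as a block it was -0.34 (edgeR adjusted p = 0.114). Of 8 Paneth cell markers, 7 were highest in replicate 3 among CD24Mid libraries and 6 in replicate 4 among CD24Neg libraries. Their summed level was 238, 475, 254 and 197 CPM in CD24Mid replicates 1, 3, 5 and 7, against 272, 421, 137 and 221 CPM in CD24Neg replicates 2, 4, 6 and 8. In CD24Mid this sum was lowest in replicate 7, not in replicate 5 as Slc15a2 was. Paneth markers were not alone: 7 of 10 crypt markers and 4 of 7 goblet markers were highest in replicate 3, and 7 of each in replicate 4. Enterocyte markers were mostly highest in replicates 1 (8 of 10) and 6 (7 of 10). The part of any of these cell types in the values of Slc15a2 was not tested. The labels do not say whether libraries with consecutive numbers share an animal or a day.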
